A study of Mus musculus with 12 samples.

Results

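Brain tumours grown in old mice with parabiosis, the surgical joining of a pair of animals, were compared with tumours of untreated old mice, 3 RNA libraries against 3. All genes with a CPM (read count scaled to library size, per 1e6 reads) of at least 1 in at least 3 of these 6 libraries were tested, which kept 14772 of the 24054 genes in the deposited table. The 234 genes that reached 1 CPM in exactly 3 libraries had a median mean level of 1.07 CPM, and the 296 left out with exactly 2 such libraries had 0.912 CPM. Of the genes tested, 12 passed with all 3 parabiosis libraries and no untreated old library at 1 CPM, and 19 passed the opposite way; these had to differ between the groups.

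All hosts were female C57BL/6 mice by their labels. Cells labelled ms7080, a mouse tumour line that the protocol text calls BC cells, had been injected into the striatum, and tumour tissue was taken once the mice had symptoms. Both groups were labelled old (16 months). The untreated group had no treatment, and the other had been surgically joined to a second animal, whose age the sources used here do not give. 3 libraries of untreated young mice (2 months) and 3 of old mice given nicotinamide mononucleotide (NMN, 300 mg per kg per day) were in the same fit and served to estimate the spread. The joining surgery, its drugs and the cohousing came together in the parabiosis group, and no sham-operated group is among these libraries, so a shared circulation and the surgery cannot be told apart. All tumours came from 1 injected line, and each library was treated as 1 mouse.

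In parabiosis, skin and joints are sutured together and the blood vessels of both animals connect, so that both are exposed to the same blood-borne proteins and cells. Work with mice of unequal age has used it to ask which features of old tissue, including neurogenesis and blood vessels in the brain, depend on factors in blood. A tumour grown in the striatum is a mixture of injected cells and host neurons, glia, vessels and immune cells, and in such a bulk sample fewer cells of a type and less RNA per cell cannot be told apart.

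The 12 libraries held 18566096 to 26779406 reads. The tissue label was checked on marker genes: Mki67, a gene of dividing cells, stood at 328 to 713 CPM in the 6 libraries, Gfap, an astrocyte filament also made by gliomas, at 825 to 1930 CPM, and Snap25, a synaptic protein, at 154 to 667 CPM. Parabiosis replicate 3 stood apart: its correlations with the other 5 libraries over all genes tested were 0.944 to 0.964, against 0.962 to 0.985 among those 5, and it had the highest score for neuronal genes of the 6, at 1.24 against -0.39 to 0.23 (mean log2 deviation from the 12 libraries). The host label Female was not matched by all libraries. Xist, the RNA that coats the inactive X in female cells, was at 1.88, 2.76 and 379.7 CPM in the untreated old libraries and at 516, 499 and 934 CPM in the parabiosis libraries. RNA of 4 Y-linked genes (Ddx3y, Eif2s3y, Kdm5d and Uty) was present in every library, with a sum of 207 to 271 CPM in untreated old and 91.0 to 247 CPM with parabiosis. The sources used here do not give the sex of the injected line. Untreated old replicates 1 and 2, with Xist under 3 CPM, therefore went against their label, and so did young replicate 3, with Xist at 5.33 CPM where the other young libraries had 202 and 164 CPM. For many leading genes and gene groups, differences or medians are also given against untreated old replicate 3 alone, a single library with no spread of its own. None are given for the other observations at the end. The young library bears on the spread of the fit and on comparisons with young tumours; without it limma again called 0 genes, with a smallest adjusted p of 0.395 and 1003 genes at an unadjusted p under 0.05.

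With parabiosis, X-linked genes had higher means as a group, 465 of 529 besides Xist, by a median of 0.31 on the log2 scale. Genes of the vacuolar proton pump and of oxidative phosphorylation had mostly higher means, while Wnt3, beta protocadherins and numbered zinc finger genes were mostly at lower levels. Single genes did not pass the main test. limma on log2(CPM + 1), adjusted with the Benjamini-Hochberg method over the 14772 genes, called 0 genes in either direction, with a smallest adjusted p of 0.679; edgeR's quasi-likelihood test on the recovered reads also called 0, with a smallest adjusted p of 0.764. Unadjusted limma p-values were under 0.05 for 409 genes with a higher mean (2.77% of genes tested) and 425 with a lower mean (2.88%), and for 886 genes in edgeR. DESeq2 on the same reads called 25 genes higher (0.169% of 14750 genes with an adjusted p) and 18 lower (0.122%). No overlap between the groups' libraries was found for 1035 genes higher with parabiosis (7.01%) and 1001 lower (6.78%). The mean was higher with parabiosis for 7996 genes (54.1%), and the median log2 difference over all genes tested was 0.021. Against the mean of the other 3 groups together, limma again called 0 genes, with a smallest adjusted p of 0.177 and 1254 genes at an unadjusted p under 0.05. With the 3 libraries of low Xist left out (a choice made after seeing the data), so that the remaining untreated old library is assumed to vary like the other groups, that contrast called 1 gene (0.00677% of genes tested) and had 2030 at an unadjusted p under 0.05. The gene was 2610307P16Rik, lower with parabiosis by a log2 difference of -1.54 (adjusted p 0.0308 in limma, where all 12 libraries gave 0.3399), at 5.11, 4.22 and 11.2 CPM in untreated old and 1.66, 1.67 and 1.996 CPM in parabiosis libraries.

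**Figure D1:**
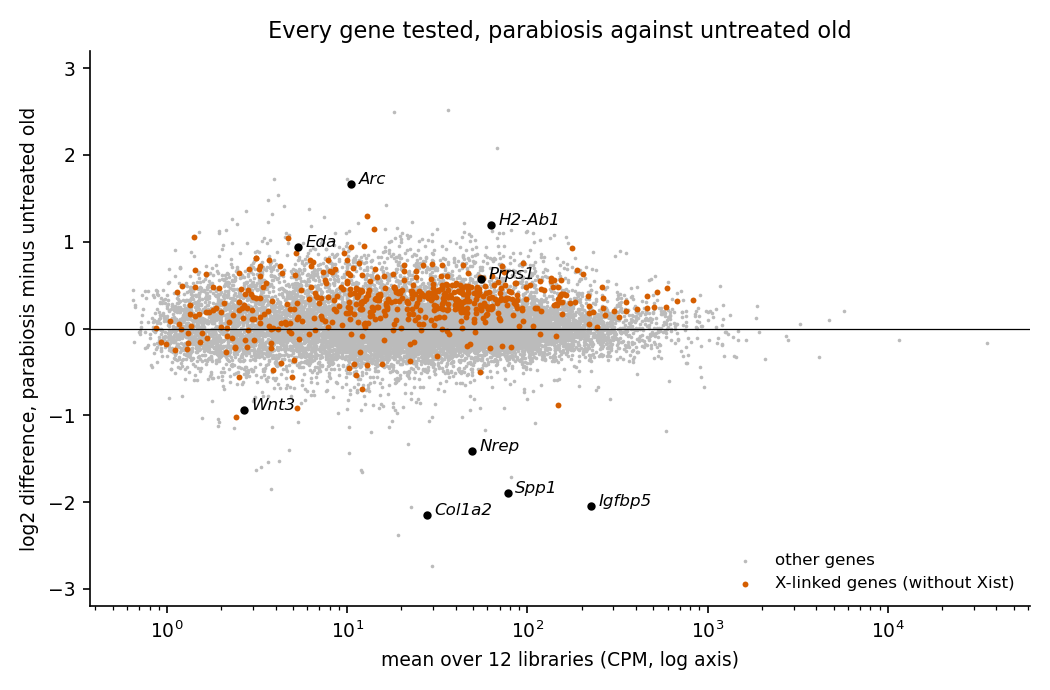
Each point is 1 of the 14772 genes, placed by its mean over 12 libraries (CPM, log axis) and its log2 difference between parabiosis and untreated old; X-linked genes are in orange and Xist, at 5.28, lies outside the plotted range. X-linked genes lie mostly above 0, while single genes with larger differences, such as Col1a2, Igfbp5 and Spp1, lie far below it.

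Leading genes were picked by p among named genes without overlap and of at least 2 CPM in the higher group. For genes picked so, here and below, separate libraries were a condition of the choice. Those with the smallest p and a higher mean with parabiosis were mostly X-linked. Prps1, which makes phosphoribosyl pyrophosphate for nucleotide synthesis, was at 50.1, 50.3 and 48.1 CPM in untreated old and 65.5, 74.6 and 82.6 CPM in parabiosis libraries. The untreated old libraries lay within a few CPM of each other and all parabiosis libraries were above them. The log2 difference was 0.57 ± 0.10 (SE), with an adjusted p of 0.679 in limma and 2.3e-04 in DESeq2. In untreated young and NMN tumours Prps1 was at 49.7 ± 3.802 and 47.3 ± 1.79 CPM (SD, n = 3), near the untreated old mean. Eif2s3x, a subunit of the translation initiation factor eIF2 that is known to escape X inactivation, was at 218, 213 and 244 CPM in untreated old and 294, 314 and 334 CPM in parabiosis libraries. All parabiosis libraries were again the higher ones. Its log2 difference was 0.48 ± 0.095 (SE), with an adjusted p of 0.815 in limma and 6.3e-04 in DESeq2. Eda, ectodysplasin A, a ligand of the TNF family, was at 2.81, 3.47 and 3.12 CPM in untreated old and 6.36, 7.21 and 7.27 CPM in parabiosis libraries. The groups were well apart at this low level, a 2.21-fold difference in means (log2 difference 0.94 ± 0.17, SE; adjusted p 0.679 in limma and 0.00347 in DESeq2). Young tumours, at 5.27, 5.43 and 7.84 CPM, and NMN tumours, at 5.78, 4.28 and 5.17 CPM, also lay above every untreated old library for Eda, which was lowest in the untreated old group. The log2 difference against untreated old replicate 3 alone was 0.61 for Prps1, 0.36 for Eif2s3x and 0.94 for Eda.

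The other X-linked genes of this kind were Tsr2, which helps assemble the small ribosomal subunit, Ndufb11, a subunit of respiratory complex I, Vma21, an assembly factor of the vacuolar proton pump, Eif1ax, another initiation factor, and the neighbouring near-copies Arxes1 and Arxes2, whose reads may be split between them. Tsr2 was at 34.01, 35.6 and 33.8 CPM in untreated old and 48.1, 53.2 and 75.8 CPM in parabiosis libraries, with parabiosis replicate 3 the highest. Ndufb11 was at 38.7, 35.2 and 34.2 CPM in untreated old and 50.2, 44.2 and 52.00 CPM in parabiosis libraries. Vma21 was at 40.8, 39.00 and 38.3 CPM in untreated old and 53.3, 64.1 and 68.6 CPM in parabiosis libraries, and parabiosis replicate 3 was again the highest. None of these 6 genes had a library of one group within the range of the other, which their choice required. Log2 differences were 0.73 ± 0.16 for Tsr2, 0.43 ± 0.094 for Ndufb11, 0.63 ± 0.15 for Vma21 and 0.51 ± 0.12 for Eif1ax (SE). They were 0.76, 0.50, 0.67 and 0.43 against untreated old replicate 3 alone. The 12 genes with the smallest p per direction came from named genes without overlap and of at least 2 CPM in the higher group. Of these, 9 with a higher mean were X-linked and 0 with a lower mean. Libraries were separate and higher for 36.0% of X-linked and 5.92% of autosomal genes, so this filter itself favoured X-linked genes. DESeq2 placed 15 X-linked genes among its 25 higher calls and 0 among its 18 lower calls, while X-linked genes made up 3.59% of genes tested.

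**Figure D2:**
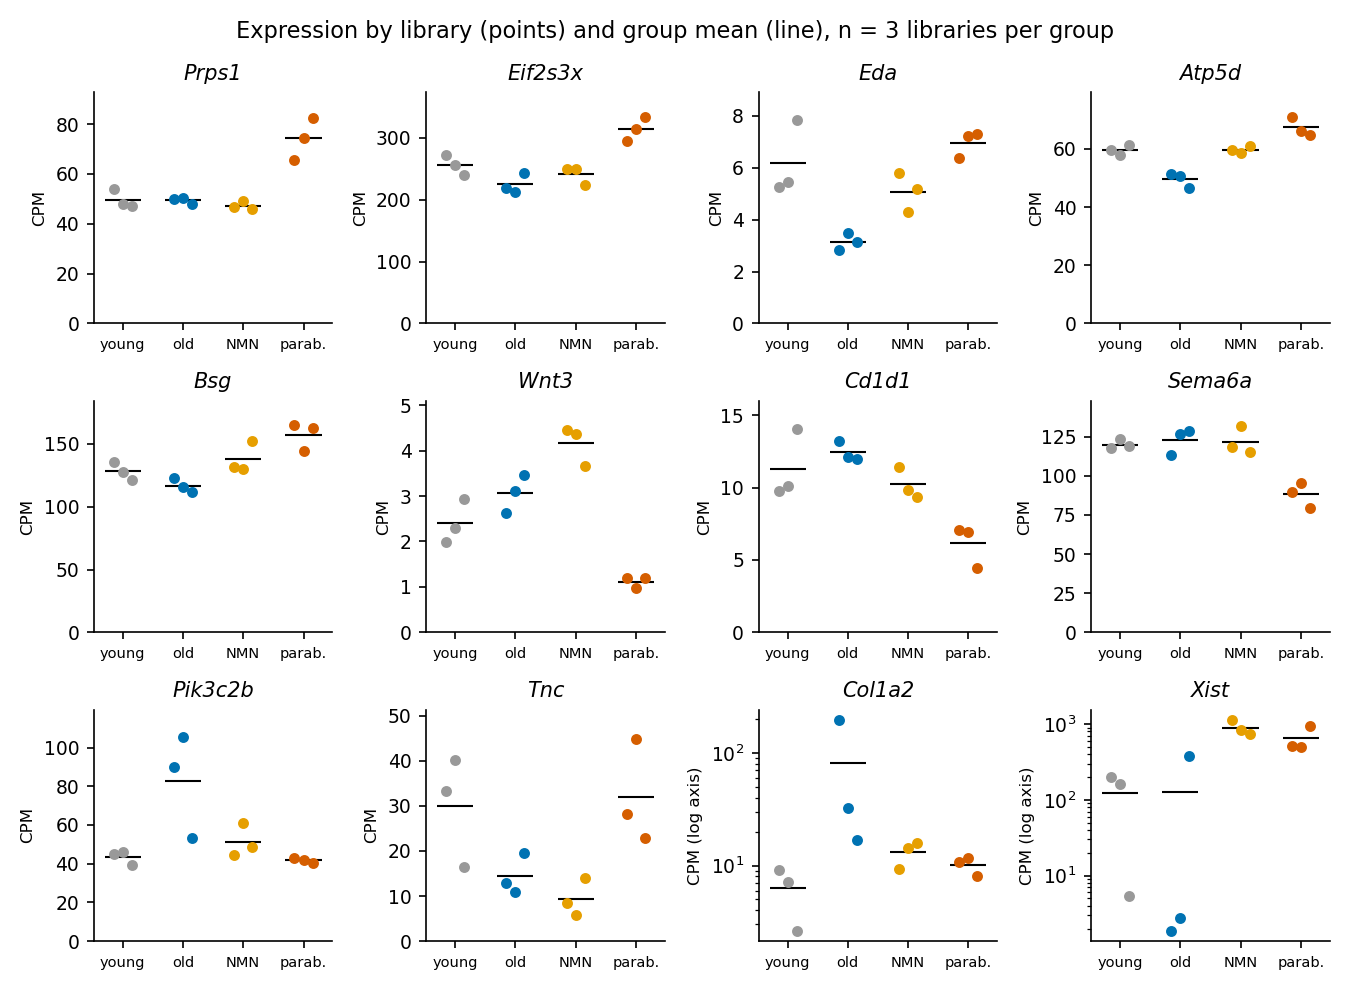
CPM of 12 genes in all 12 libraries, by group; points are libraries, lines are means of 3 libraries, and the axes of Col1a2 and Xist are logarithmic. Prps1, Eif2s3x, Atp5d and Bsg have all 3 parabiosis libraries above the untreated old ones, Wnt3, Cd1d1 and Sema6a have all 3 below, and Col1a2 has 1 untreated old library far above the rest.

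The difference extended over the whole X chromosome. In female cells 1 X is silenced and coated by Xist RNA, so that most X-linked genes are read from a single copy in both sexes. Of the 529 X-linked genes tested besides Xist, 465 had a higher mean with parabiosis, and their median log2 difference was 0.31 (quartiles 0.15 and 0.45), which corresponds to a 1.24-fold difference; autosomal genes had a median of 0.014. The groups' libraries were separate for 191 of 530 X-linked genes in the higher direction and 8 in the lower, against 838 and 989 of 14150 autosomal genes. Positions from the RefSeq table (GRCm38.p6) showed the same along the chromosome: in 9 windows of 20 Mb the median ran from 0.24 to 0.39. It was 0.21 in X-linked genes under 10 CPM, 0.33 in those of 10 to 50 CPM and 0.33 above 50 CPM, whereas autosomal genes of the same levels had medians of 0.031, 0.0092 and 0.012.

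Library by library, the median log2 deviation of X-linked genes from the untreated old mean, less that of autosomal genes, was 0.22, 0.16 and 0.47 in parabiosis replicates 1, 2 and 3. It was 0.10, -0.064 and -0.048 in the untreated old libraries, 0.066, -0.077 and -0.008 in NMN and -0.020, -0.068 and 0.023 in young. All 3 parabiosis libraries were above the other 9, and untreated old replicate 1 was the highest of those 9. Between the groups the difference of medians was 0.30; it was 0.19 without parabiosis replicate 3, 0.21 with a brain tissue score (the mean of neuronal and myelin list scores) as covariate and 0.35 against untreated old replicate 3 alone. The chromosome medians were not tested, and the number of libraries per group limits them. Xist did not order the libraries in this way, since it was at 1127, 834 and 742 CPM in the NMN tumours, whose X-linked genes were not high. Parabiosis replicate 3 had at the same time the highest X value, the highest neuronal score of the 6 and the lowest Y-linked RNA, and the part of host cell content in the X-linked difference was not tested.

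Genes known to escape X inactivation were higher in the same libraries. All 7 listed members had a higher mean, with a median of 0.34, and 5 of 7 did not overlap in the higher direction, beside 191 of 530 X-linked genes and 7.01% of all genes tested. Against untreated old replicate 3 alone the median was 0.25. Ddx3x, an RNA helicase with a Y-linked partner, was at 467, 447 and 489 CPM in untreated old and 535, 571 and 564 CPM in parabiosis libraries. Kdm5c, a histone demethylase, was at 134, 128 and 149 CPM in untreated old and 164, 156 and 202 CPM in parabiosis libraries. All parabiosis libraries were the higher ones for both, as they were for Kdm6a, another demethylase. The 4 Y-linked genes tested had lower means, with a median of -0.55; Ddx3y was at 68.4, 88.4 and 86.2 CPM in untreated old and 61.6, 89.5 and 33.98 CPM in parabiosis libraries, and Eif2s3y at 47.5, 58.9 and 55.3 CPM in untreated old and 40.6, 44.3 and 16.3 CPM in parabiosis libraries. Their lowest values were those of parabiosis replicate 3, and against untreated old replicate 3 alone the median was -0.72. Without parabiosis replicate 3 the median was -0.17. Ftx and Jpx, noncoding RNAs of the X inactivation centre beside Xist, had log2 differences of 0.081 ± 0.10 and 0.048 ± 0.14 (SE).

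**Figure D3:**
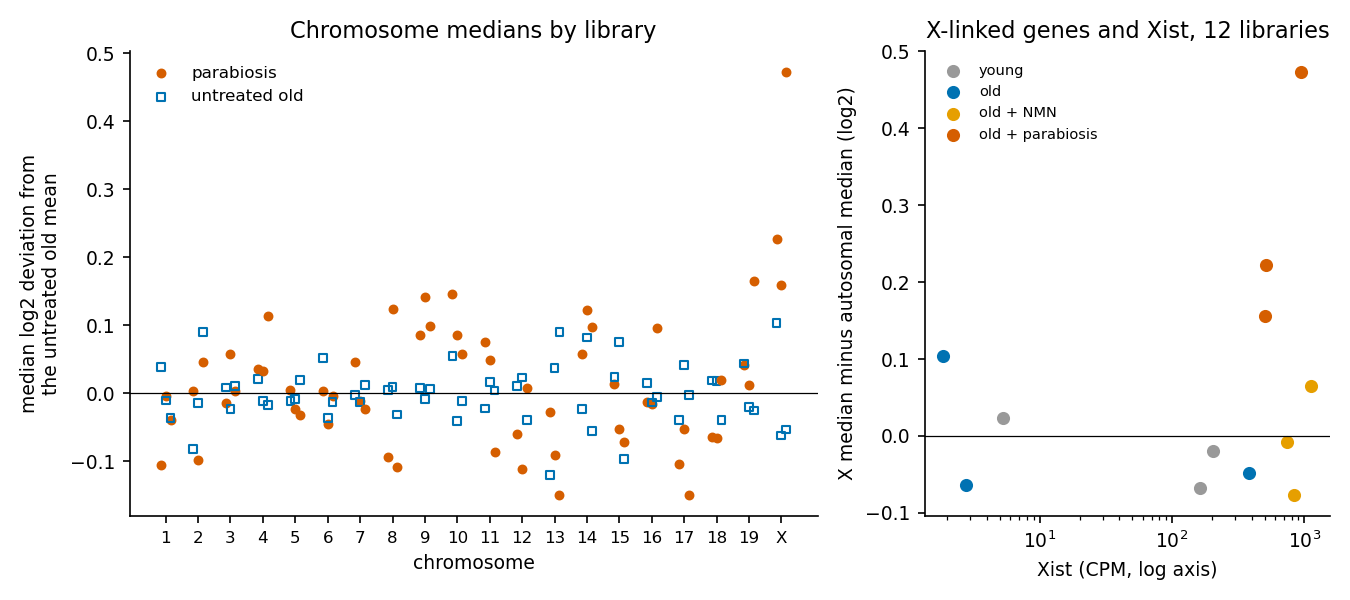
Left, median log2 deviation from the untreated old mean over the genes of each chromosome, 1 point per library; right, the X median minus the autosomal median of each of the 12 libraries against Xist (CPM, log axis). The X values of the parabiosis libraries, 0.22, 0.16 and 0.47 above autosomes, exceed all others, and the 3 NMN libraries combine high Xist with X values near 0.

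Smaller differences were seen on autosomes. The median log2 difference was 0.12 over the 839 genes of chromosome 9, of which 633 were above 0, and 0.10 over both chromosomes 10 and 14. It was -0.091 over the 712 genes of chromosome 17 and -0.082 over the 573 of chromosome 13. When chromosomes were divided into windows of 5 Mb, 336 windows held at least 15 genes. On chromosome 10 from 80 to 85 Mb, 25 of 105 genes had non-overlapping higher libraries and 0 had lower ones, and from 75 to 80 Mb 19 of 75 were higher and 1 lower, beside 5.92% of autosomal genes higher and 6.99% lower. On chromosome 13 from 60 to 65 Mb, 12 of 25 genes did not overlap in the lower direction and 0 in the higher, with a median of -0.28, and on chromosome 17 from 20 to 25 Mb 21 of 80 were lower and 0 higher. These 4 of 336 windows were picked after their values were seen and are a description. No copy number was measured in these samples.

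Autosomal genes with higher means and a small p included some whose proteins act in mitochondria, beside others. Atp5d, the delta subunit of the ATP synthase, was at 51.5, 50.7 and 46.6 CPM in untreated old and 71.1, 66.3 and 64.9 CPM in parabiosis libraries. Its parabiosis libraries were all higher, with a log2 difference of 0.44 ± 0.081 (SE) and an adjusted p of 0.729 in limma and 5.9e-04 in DESeq2. Ppif, cyclophilin D of the mitochondrial permeability pore, was at 8.54, 9.68 and 12.2 CPM in untreated old and 17.1, 15.4 and 17.4 CPM in parabiosis libraries, again with no overlap (log2 difference 0.68 ± 0.15, SE; adjusted p 0.815 in limma, 0.0114 in DESeq2). Bsg, basigin, the partner protein of lactate transporters, was at 123, 116 and 112 CPM in untreated old and 165, 145 and 163 CPM in parabiosis libraries, and its log2 difference was 0.43 ± 0.096 (SE). Atp5d and Bsg both lie on chromosome 10, which held windows described above. Cyct, the testis form of cytochrome c, was at 0.6099, 0.7098 and 0.903 CPM in untreated old and 3.97, 3.77 and 1.28 CPM in parabiosis libraries; its sequence is close to that of Cycs, so its reads may be shared. Ankrd40 had a log2 difference of 0.34 ± 0.086 (SE), without overlap. Against untreated old replicate 3 alone, log2 differences were 0.52 for Atp5d, 0.42 for Ppif, 0.49 for Bsg, 0.99 for Cyct and 0.41 for Ankrd40.

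The list of nuclear-encoded subunits of oxidative phosphorylation differed little but evenly. Of 22 genes, 20 had a higher mean, with a median log2 difference of 0.11 where 54.1% of all genes tested were higher; 5 did not overlap in the higher direction and 0 in the lower, beside 7.01% and 6.78% of all genes tested. Summed over the list, the libraries held 2365 to 2489 CPM in untreated old and 2638 to 2709.6 CPM with parabiosis, so the sums did not overlap. Cox7b, an X-linked subunit of cytochrome c oxidase, was at 67.7, 56.4 and 49.5 CPM in untreated old and 73.8, 72.6 and 86.6 CPM in parabiosis libraries. Ndufb5, a complex I subunit on chromosome 3, was at 42.1, 41.9 and 40.3 CPM in untreated old and 46.5, 50.6 and 51.7 CPM in parabiosis libraries. Parabiosis libraries were the higher ones in both. Scaling to the upper quartile lowered the median over the list to 0.056, and against untreated old replicate 3 alone it was 0.15. By gene symbol, 36 of 45 genes named Nduf, as for complex I, and 15 of 17 named Atp5, as for the ATP synthase, had higher means. A name does not prove a place in the complex. Of the genes named Nduf, 8 did not overlap in the higher direction and 2, Ndufaf7 and Ndufv3, in the lower. Of those named Atp5, 7 and 0 did so, and the shares over all genes tested were 7.01% and 6.78%. The list of glycolysis and hypoxia genes had 15 of 19 members with a higher mean, 3 of them without overlap, and a median of 0.19 (0.45 against untreated old replicate 3 alone); Pgk1, an X-linked glycolytic kinase, was at 245, 206 and 172 CPM in untreated old and 249, 265 and 288 CPM in parabiosis libraries.

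The vacuolar proton pump showed larger differences. This V-ATPase acidifies lysosomes and, in neurons, synaptic vesicles, and is built of a membrane V0 part and a catalytic V1 part. Of 26 genes named Atp6v or Atp6ap, 20 were tested; 18 of these had a higher mean, the median log2 difference was 0.31, and 6 did not overlap in the higher direction and 0 in the lower, beside 7.01% and 6.78% of all genes tested. Atp6v0b, a V0 subunit, was at 45.9, 44.98 and 42.4 CPM in untreated old and 55.1, 55.4 and 58.2 CPM in parabiosis libraries, with every parabiosis library the higher. Atp6v1a, the catalytic subunit, was at 161, 141 and 124 CPM in untreated old and 162, 165 and 270.2 CPM in parabiosis libraries, and here the groups were separate by a narrow margin, with parabiosis replicate 3 far above the rest. Atp6ap2, an X-linked accessory protein, was at 56.7, 51.8 and 48.1 CPM in untreated old and 65.8, 69.8 and 111 CPM in parabiosis libraries. Median deviations of the family were 0.17, 0.018 and -0.13 in untreated old and 0.22, 0.22 and 0.63 in parabiosis libraries; without parabiosis replicate 3 the median was 0.18, and with the brain tissue score as covariate it was 0.12; against untreated old replicate 3 alone it was 0.40. The family, and the members named, were chosen after their values were seen. Gnptab, which makes the mannose 6-phosphate tag of lysosomal enzymes, was at 80.5, 76.6 and 72.7 CPM in untreated old and 96.8, 95.2 and 91.8 CPM in parabiosis libraries (log2 difference 0.30 ± 0.076, SE; adjusted p 0.815 in limma and 0.0107 in DESeq2).

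Genes of lysosomes are known targets of the transcription factor TFEB, which binds the palindromic core CACGTG preceded by T or followed by A. Promoters of 300 bases, from 250 before to 50 after the gene start, were taken from RefSeq (GRCm38.p6) for the 13 V-ATPase genes that matched by symbol, and TCACGTG or its reverse complement CACGTGA was found on either strand in 4 of them. The same was found in 3.77% of 32851 promoters of this table. The 4 genes were Atp6v0b, Atp6v0d1, Atp6v1a and Atp6v0e, of which Atp6v0d1 and Atp6v0e were not among the genes without overlap. No motif was found for Atp6ap1, Atp6ap2, Atp6v1c1 and Atp6v1g1, which did not overlap, and some of these may lack a searched promoter. A link between motif and expression was not tested. The promoters of Atp6v0b, at chr4:117887280-117887579 on the minus strand, and Atp6v1a, at chr16:44139210-44139509 on the minus strand, are shown because both genes were among those without overlap; capitals mark the motif, and where TCACGTGA is in capitals the searched letters overlap.
Atp6v0b promoter: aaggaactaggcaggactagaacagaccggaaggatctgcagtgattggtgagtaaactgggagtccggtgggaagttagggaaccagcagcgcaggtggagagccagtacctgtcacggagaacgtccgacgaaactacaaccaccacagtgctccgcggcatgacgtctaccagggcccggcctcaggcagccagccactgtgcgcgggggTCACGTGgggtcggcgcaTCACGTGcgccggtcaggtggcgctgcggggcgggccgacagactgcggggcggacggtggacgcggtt
Atp6v1a promoter: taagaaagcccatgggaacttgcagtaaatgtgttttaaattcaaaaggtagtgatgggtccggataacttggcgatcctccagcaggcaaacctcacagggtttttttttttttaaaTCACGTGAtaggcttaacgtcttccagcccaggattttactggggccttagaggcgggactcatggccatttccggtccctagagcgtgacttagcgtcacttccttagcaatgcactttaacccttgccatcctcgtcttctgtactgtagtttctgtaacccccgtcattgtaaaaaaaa
A match describes these letters and was not tied to binding in these tumours.

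Protein synthesis genes had small differences of one sign. Of 82 cytosolic ribosomal protein genes tested, 77 had a higher mean, with a median of 0.16; 9 did not overlap in the higher direction and 0 in the lower, beside 7.01% and 6.78% of all genes tested, so the share of 82 genes that were separate and higher, 10.98%, was near the background. Rpl10, an X-linked member picked after its values were seen, was at 521, 556 and 543 CPM in untreated old and 719, 762 and 756 CPM in parabiosis libraries. Rps24 was at 518, 672 and 659 CPM in untreated old and 849.6, 938 and 714 CPM in parabiosis libraries, with every parabiosis library above the untreated old ones. The median deviations were -0.18, 0.084 and 0.10 in untreated old and 0.22, 0.28 and -0.049 in parabiosis libraries, so that replicate 3 of parabiosis lay within the untreated old range. Against untreated old replicate 3 alone the median was 0.060. Ribosomal protein genes have many processed copies in the genome, which makes their single values uncertain. Of 77 mitochondrial ribosomal protein genes, 56 had a higher mean, with a median of 0.062 (0.034 against untreated old replicate 3 alone).

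Genes with lower means and a small p included signalling and surface proteins. These too were picked from genes without overlap. Wnt3, a secreted signalling ligand of the Wnt family, was at 2.63, 3.101 and 3.46 CPM in untreated old and 1.195, 0.968 and 1.19 CPM in parabiosis libraries. The parabiosis libraries were low not only beside these but beside NMN, at 4.46, 4.36 and 3.67 CPM, and young tumours, at 1.998, 2.29 and 2.94 CPM. Its log2 difference was -0.94 ± 0.16 (SE), a 2.74-fold lower mean, with an adjusted p of 0.679 in limma and 4.9e-04 in DESeq2. Against the mean of the other 3 groups, limma gave an adjusted p of 0.177 for Wnt3 and for Prps1. Against untreated old replicate 3 alone, the log2 difference was -1.08 for Wnt3.

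Cd1d1, which presents lipid antigens to natural killer T cells and has a close copy in Cd1d2, was at 13.2, 12.1 and 11.97 CPM in untreated old and 7.09, 6.94 and 4.47 CPM in parabiosis libraries. The libraries were well apart (log2 difference -0.93 ± 0.19, SE; adjusted p 0.815 in limma and 0.0107 in DESeq2). Sema6a, a transmembrane guidance cue for growing axons, was at 114, 127 and 129 CPM in untreated old and 89.9, 95.5 and 79.3 CPM in parabiosis libraries, a small but even difference. Pik3c2b, a class II phosphoinositide kinase, was at 89.9, 105 and 53.2 CPM in untreated old and 42.8, 41.9 and 40.4 CPM in parabiosis libraries; its parabiosis libraries lay close together, and the young libraries were at similar levels, 44.9, 45.96 and 39.6 CPM. Untreated old replicates 1 and 2 carried most of this difference, since against replicate 3 alone the log2 difference was -0.34 in place of -0.92. Nrep, a protein linked to regrowth of injured axons, was at 140.1, 61.1 and 65.9 CPM in untreated old and 27.7, 29.04 and 34.8 CPM in parabiosis libraries, with untreated old replicate 1 the highest. Log2 differences against untreated old replicate 3 alone were -0.88 for Cd1d1, -0.55 for Sema6a and -1.09 for Nrep. Others of this kind were Pcdha4-g of the alpha protocadherin cluster, Utp23 of ribosomal RNA processing, the tubulin acetyltransferase Atat1, the guanine exchange factor Plekhg2 and the drug-metabolising Tpmt, with log2 differences from -0.87 for Pcdha4-g to -0.33 for Utp23.

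A pair of gene families had mostly lower means. Genes named Zfp with a number, many of which encode DNA-binding zinc finger proteins that repress transcription, had lower means in 256 of 340 tested, with a median of -0.11; 10 did not overlap in the higher direction and 62 in the lower, beside 7.01% and 6.78% of all genes tested. The median was -0.20 against untreated old replicate 3 alone. The beta protocadherins, adhesion proteins from 1 cluster on chromosome 18 that give neurons their surface identity, had lower means in 21 of 22, with a median of -0.35 (-0.56 against untreated old replicate 3 alone); 0 did not overlap in the higher direction and 8 in the lower, beside 7.01% and 6.78% of all genes tested. Pcdhb16 was at 46.2, 45.5 and 43.96 CPM in untreated old and 31.5, 31.9 and 30.9 CPM in parabiosis libraries, and Pcdhb7 at 13.8, 18.8 and 26.7 CPM in untreated old and 11.8, 12.4 and 13.5 CPM in parabiosis libraries. The parabiosis libraries of both genes lay close together below every untreated old one. Median deviations of the beta protocadherins were -0.21, 0.018 and 0.17 in untreated old and -0.43, -0.36 and -0.33 in parabiosis libraries, while young tumours had -0.008, -0.060 and 0.46. These families were also chosen after their values were seen, and reads shared among their similar members are uncertain.

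**Figure D4:**
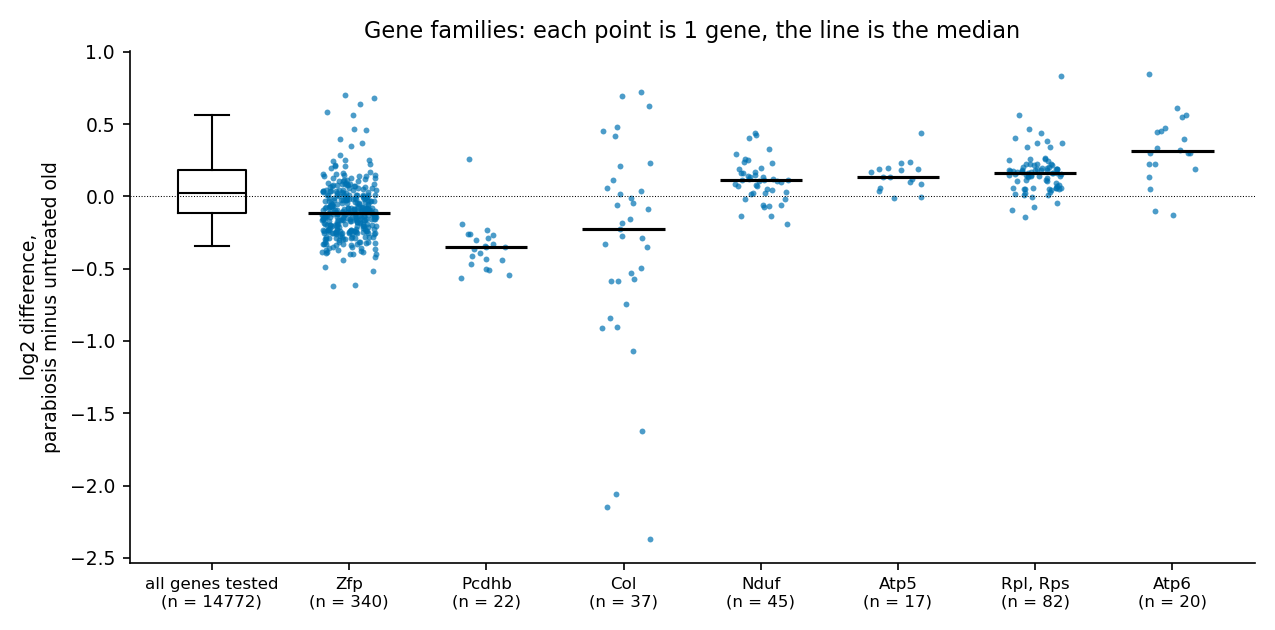
Log2 difference between parabiosis and untreated old for the genes of 7 families, 1 point per gene with the family median as a line; the box at the left gives the quartiles of all 14772 genes with whiskers at the 5th and 95th percentile. V-ATPase genes have a median of 0.31, ribosomal proteins of 0.16, Zfp genes of -0.11 and beta protocadherins of -0.35, and collagens, with a median of -0.23, are the most spread.

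Some collagen genes had large negative differences, with untreated old replicate 1 far above the other libraries. Of all 37 genes named Col that were tested, 25 had a lower mean, with a median log2 difference of -0.23 (-0.028 against untreated old replicate 3 alone); 1 did not overlap in the higher direction and 3 in the lower, beside 7.01% and 6.78% of all genes tested. Col1a2, a chain of type I collagen, was at 195, 32.5 and 16.9 CPM in untreated old and 10.8, 11.6 and 8.03 CPM in parabiosis libraries. Untreated old replicate 1 was several times above the others of its group, and all parabiosis libraries were below. The log2 difference was -2.15 ± 0.72 (SE; adjusted p 0.815 in limma, 0.0151 in DESeq2); against untreated old replicate 3 alone it was -0.70. With 1 library left out it ran from -2.88 to -1.15. Col6a3, of type VI collagen, was at 157, 27.1 and 6.699 CPM in untreated old and 5.63, 8.48 and 2.899 CPM in parabiosis libraries, and Col3a1, of type III collagen, at 158, 34.4 and 13.5 CPM in untreated old and 17.00, 12.9 and 3.52 CPM in parabiosis libraries; in both, the groups overlapped. The narrower list of fibrillar and basement membrane collagens had 11 of 14 lower means and a median of -0.69, which was -0.049 without untreated old replicate 1 and 0.023 against replicate 3 alone. Fn1, fibronectin, was at 2532, 759.8 and 432 CPM in untreated old and 320.0, 541 and 415 CPM in parabiosis libraries, again with the same library highest.

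Of 18 matrix glycoproteins and crosslinkers, 1 (5.56%) did not overlap in the higher direction and 2 (11.1%) in the lower. The shares over all genes tested were 7.01% and 6.78%. Tnc was the higher one, Vcan and the crosslinking enzyme Loxl2 the lower. Spp1, osteopontin, listed with genes of disease-associated glia, was at 295, 80.1 and 133 CPM in untreated old and 20.4, 43.8 and 63.9 CPM in parabiosis libraries, and Vcan, the proteoglycan versican, at 1059, 1150.2 and 1023 CPM in untreated old and 888, 771 and 453 CPM in parabiosis libraries. For both, every parabiosis library was below every untreated old one. The list that holds Spp1 had mostly higher means, in 15 of 17 genes, with a median of 0.17. In it 1 of 17 genes did not overlap in each direction, beside 7.01% higher and 6.78% lower of all genes tested. Log2 differences were -1.90 ± 0.61 for Spp1 and -0.67 ± 0.21 for Vcan (SE), and -1.76 and -0.60 against untreated old replicate 3 alone. Tnc, tenascin C, a glycoprotein of developing brain and glioma matrix, went the other way, at 12.8, 10.9 and 19.6 CPM in untreated old and 28.2, 44.7 and 22.8 CPM in parabiosis libraries, and its log2 difference was 1.07 ± 0.39 (SE), or 0.62 against untreated old replicate 3 alone. In that list of 18, 12 genes had a lower mean; the median was -0.12 and it was 0.048 without untreated old replicate 1 and -0.018 against replicate 3 alone. Igfbp5, a secreted binder of insulin-like growth factors, was at 1418, 309 and 117 CPM in untreated old and 99.4, 57.8 and 126 CPM in parabiosis libraries, so the groups overlapped although DESeq2 gave an adjusted p of 0.0236.

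Interferon-induced and antigen presentation genes had higher means with wide spread inside both groups. All 15 tested genes of the interferon gamma list had a higher mean, with a median of 0.70, as did all 8 class II histocompatibility genes, with a median of 0.94. H2-Ab1, a class II chain that presents peptides to helper T cells, was at 70.4, 92.8 and 3.95 CPM in untreated old and 218, 80.97 and 21.1 CPM in parabiosis libraries. B2m, the light chain of class I molecules, was at 762, 896 and 191 CPM in untreated old and 1236, 812 and 399 CPM in parabiosis libraries. Untreated old replicate 3 was by far the lowest library for both and parabiosis replicate 1 the highest, and the groups overlapped. Median deviations of the class II list were 1.01, 1.16 and -2.23 in untreated old and 2.27, 1.21 and -0.60 in parabiosis libraries. Without untreated old replicate 3 the medians changed sign, to -0.27 for the interferon gamma list and -0.19 for class II. Class I genes (11 of 13 higher, median 0.41) and type I interferon genes (19 of 20, median 0.26) likewise had medians of -0.41 and -0.058 without that library. Since that library was so low, the medians against it alone were 2.30 for the interferon gamma list, 3.18 for class II, 1.88 for class I and 0.79 for type I interferon. Cxcl10, a chemokine that draws T cells, was without overlap, 1 of 15 genes of the interferon gamma list and 0 of the other 3 lists (7.01% of all genes tested were separate and higher), at 34.8, 42.5 and 17.95 CPM in untreated old and 112, 56.6 and 56.1 CPM in parabiosis libraries. None of these genes had an adjusted p under 0.05 in limma.

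**Figure D5:**
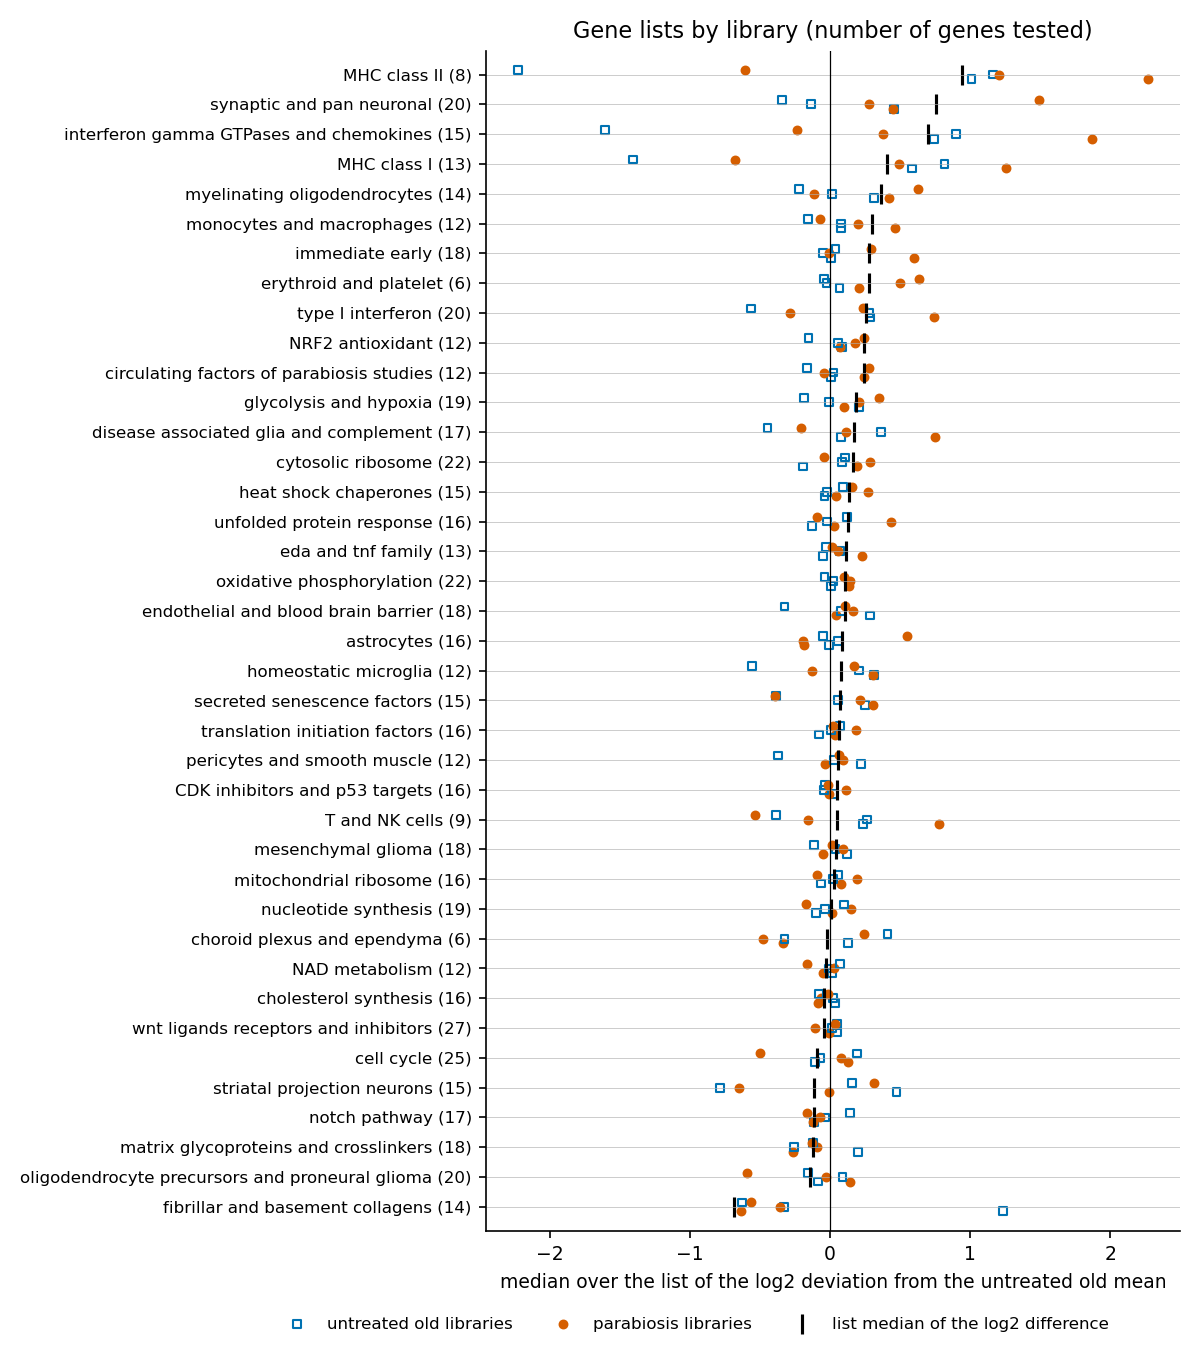
For each gene list, median log2 deviation of its genes against the untreated old mean, with 1 open square per untreated old library and 1 filled circle per parabiosis library; the black bar is the list median of the log2 difference. Interferon and histocompatibility lists spread widely inside both groups, the oxidative phosphorylation list is tight, and 1 untreated old library lies at the right for collagens.

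Genes of the surrounding brain were measured together with those of the tumour. Pan-neuronal genes had a higher mean in 19 of 20, with a median of 0.76; 3 did not overlap in the higher direction and 0 in the lower, beside 7.01% and 6.78% of all genes tested. Their summed level was 2104 to 3113 CPM in untreated old and 2683 to 5918 CPM in parabiosis libraries. Snap25, of synaptic vesicle fusion, was at 309, 198 and 154 CPM in untreated old and 322, 288 and 667 CPM in parabiosis libraries, with parabiosis replicate 3 highest and the groups overlapping. Nefm, a neurofilament of axons, was at 15.9, 16.8 and 8.92 CPM in untreated old and 24.1, 21.7 and 44.3 CPM in parabiosis libraries, and Nefh, another, at 6.05, 5.305 and 7.26 CPM in untreated old and 8.98, 13.05 and 12.2 CPM in parabiosis libraries. Without parabiosis replicate 3 the median over the neuronal list was 0.38, and against untreated old replicate 3 alone it was 1.09. Genes of striatal projection neurons, the main cell type of the injected region, did not share this: 12 of 15 had lower means, with a median of -0.11, and Pde10a, a phosphodiesterase of these neurons, was at 115, 72.3 and 90.2 CPM in untreated old and 74.9, 53.8 and 88.4 CPM in parabiosis libraries. Without parabiosis replicate 2, or without untreated old replicate 1, the striatal median was above 0, at 0.16 and 0.060; against untreated old replicate 3 alone it was -0.34.

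Myelin genes had a higher mean in 13 of 14, with a median of 0.37 (0.56 against untreated old replicate 3 alone); Mbp, myelin basic protein, was at 297, 239.9 and 218 CPM in untreated old and 296, 206 and 571 CPM in parabiosis libraries, and parabiosis replicate 2 was its lowest library of the 6. Markers of oligodendrocyte precursors, which proneural gliomas share, were mixed. Sox10, a transcription factor of the whole oligodendrocyte lineage, was at 11.02, 11.95 and 11.3 CPM in untreated old and 28.3, 18.9 and 16.7 CPM in parabiosis libraries, all parabiosis libraries being higher (log2 difference 0.81 ± 0.27, SE). Dcx, an X-linked microtubule protein of migrating young neurons, was at 144, 153 and 264 CPM in untreated old and 129, 112 and 62.7 CPM in parabiosis libraries, all parabiosis libraries being lower in spite of its place on the X (log2 difference -0.89 ± 0.39, SE). Over that list 13 of 20 had lower means, with a median of -0.14. The median was 0.098 without parabiosis replicate 3 and 0.020 against untreated old replicate 3 alone. Sox10 and Dcx were the members of the list without overlap, 1 of 20 in each direction. That is 5%, below the 7.01% higher and 6.78% lower of all genes tested. Astrocyte and resting microglia lists had medians of 0.088 and 0.079, with 0 genes without overlap in either. The microglia median had no stable sign, from -0.16 to 0.24 with 1 library left out, and was 0.63 against untreated old replicate 3 alone, where the astrocyte median was 0.13. P2ry12, a microglial receptor, was at 14.2, 11.4 and 6.44 CPM in untreated old and 10.8, 8.14 and 12.2 CPM in parabiosis libraries. The 12 microglia genes summed to 299 to 427 CPM in untreated old and 339.6 to 427 CPM in parabiosis libraries. Genes of T and natural killer cells, of which 9 of 16 were tested, summed to 7.79 to 20.3 and 7.65 to 30.6 CPM, Cd8a being at 2.53, 2.32 and 1.66 CPM in untreated old and 4.86, 1.402 and 1.47 CPM in parabiosis libraries. The part of these cell types in the differences above was not tested.

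Growth and activity genes had shares without overlap both below and above those of all genes tested. In the cell cycle list, 21 of 25 had lower means, but the median was only -0.095, and 1 of 25 genes was separate in each direction, 4%, below the 7.01% higher and 6.78% lower of all genes tested. The sign of the median was not stable: it ran from -0.20 to 0.092 with 1 library left out, was -0.29 against untreated old replicate 3 alone and 0.27 with the brain tissue score as covariate. These 2 genes were Tyms and Ccnb2. Tyms, thymidylate synthase, was at 393, 351 and 413 CPM in untreated old and 301, 285 and 349 CPM in parabiosis libraries, below untreated old in every library, and Ccnb2, a mitotic cyclin, was at 5.35, 4.63 and 6.59 CPM in untreated old and 12.6, 8.71 and 8.89 CPM in parabiosis libraries, above it in every library. Mki67 was at 589, 586 and 643 CPM in untreated old and 713, 549 and 328 CPM in parabiosis libraries, so parabiosis replicates held both its highest and its lowest value. Of the immediate early genes, which neurons switch on within minutes of firing, 15 of 18 had a higher mean. Their median was 0.28 (0.29 against untreated old replicate 3 alone). Of the 18, 1 was separate and higher, 5.56%, below the 7.01% of all genes tested. Median deviations were 0.0070, -0.050 and 0.041 in untreated old and 0.60, -0.0040 and 0.29 in parabiosis libraries. Parabiosis replicate 2 thus lay within the untreated old range. Arc, which regulates receptors at synapses, was at 5.82, 2.84 and 4.59 CPM in untreated old and 39.02, 12.1 and 7.84 CPM in parabiosis libraries, and parabiosis replicate 1 was the highest. Its log2 difference was 1.66 ± 0.56 (SE; adjusted p 0.815 in limma, 0.126 in DESeq2). Heat shock genes had a higher mean in 14 of 15, with a median of 0.14 (0.082 against untreated old replicate 3 alone). Of the 15, 2 were separate and higher, 13.3%, beside 7.01% of all genes tested. Hspa1a, an inducible chaperone with a near-copy in Hspa1b, was at 2.72, 2.43 and 2.15 CPM in untreated old and 3.16, 5.04 and 6.56 CPM in parabiosis libraries.

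Proteins that earlier parabiosis work had tied to young or old blood were measured at their own RNA level in the tumour, which is not their level in blood. Gdf11, a growth factor of the TGF-beta family, was at 12.5, 13.6 and 14.9 CPM in untreated old and 12.8, 11.5 and 10.7 CPM in parabiosis libraries. Timp2, an inhibitor of matrix proteases, was at 176, 149 and 123 CPM in untreated old and 146, 126 and 272 CPM in parabiosis libraries. For both the groups overlapped. Ccl11, eotaxin, was below the expression minimum, at 0.70, 0.52 and 0 CPM in untreated old and 0.27, 0.63 and 0.62 CPM in parabiosis libraries. Over the list of such factors, 9 of 12 tested had a higher mean, with a median of 0.24 (0.41 against untreated old replicate 3 alone). Cell cycle inhibitors that mark senescent cells overlapped too, Cdkn2a being at 47.3, 33.2 and 29.6 CPM in untreated old and 36.2, 37.2 and 29.2 CPM in parabiosis libraries and Cdkn1a at 21.2, 28.1 and 21.8 CPM in untreated old and 24.1, 29.8 and 25.1 CPM in parabiosis libraries. The NAD metabolism list had a median log2 difference of -0.029, and -0.047 against untreated old replicate 3 alone.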

How the data were processed

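Libraries were taken as single mice, since the series design gives 3 animals for each group. Per the labels' protocols, total RNA was depleted of ribosomal RNA and sequenced as stranded paired-end libraries on an Illumina HiSeq. The authors deposited CPM values scaled with TMM factors, and the submitters' processing notes name FastQC, Bowtie2 2.1.0, RSEM 1.2.15, edgeR and the mm10 and GRCm38 builds. The sources used here do not give the strand setting of the counting, so overlapping and antisense genes are uncertain. In each library 100% of values were whole multiples of 1 read at a tolerance of 0.01, so reads could be recovered; 3 reads equal 0.100 to 0.143 CPM, for counting error only. Rn45s, ribosomal precursor RNA, took 2.61 to 4.90% of reads.

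Values were tested as log2(CPM + 1), which understates changes of low genes, with limma 3.58.1 (R 4.3.3): 12 libraries, 1 mean per group, a variance trend, two-sided, adjusted over all 14772 genes and called at an adjusted p under 0.05. SE values of log2 differences come from this fit. edgeR 4.0.16 and DESeq2 1.42.0 were run on the recovered reads, and DESeq2 gave 22 genes no adjusted p. The limma step was tested on simulated data. The members and the 44 gene lists were chosen with earlier results of these data known. The lists have 703 entries, of which 699 were found in the table (5 by an older symbol) and 630 were tested. Lists are described by counts and medians, with no test. By construction, the brain tissue score used as a covariate removes signal of the neuronal and myelin lists.

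Named genes were those that limma called; as there were fewer than 5, the 12 with the smallest p per direction, up to 10 per direction called by DESeq2, up to 4 per list and a set of 25, among genes of at least 2 CPM without overlap for the first kinds. Some genes taken by these criteria are not reported here. RefSeq positions (GRCm38.p6) were found for 14687 genes. Alternatives changed the libraries fitted, pseudocount, minimum, scaling and covariate. Same-numbered libraries of the groups had correlations of their deviations of -0.13, 0.23 and 0.029, so numbers do not pair them.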

Additional observations from a re-analysis of the deposited data

How the results depend on the processing

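Between parabiosis and untreated old, limma called 0 genes under every alternative, including autosomal genes alone and the fit without young replicate 3 (both chosen after seeing the data). None of the 30 leading genes followed changed its direction. They had been picked for libraries without overlap, so leaving out libraries could not reverse them. List medians, which carry no call, did change sign where stated here or with the lists. DESeq2 called 25 genes higher and 18 lower where limma called 0. Counts of genes without overlap depend on the number of libraries: leaving out 1 library gave 1391 to 2460 higher and 1313 to 1947 lower, and untreated old replicate 3 alone (chosen after seeing the data) gave 4877 and 3897. Against that library alone, the medians were 0.15 for oxidative phosphorylation, 0.023 for collagens and 0.63 for microglia. The oxidative phosphorylation median was 0.064 with quantile normalization and 0.056 with upper quartile scaling. With the brain tissue score as covariate, medians were 0.14 for neurons, which it removes by construction, 0.37 for heat shock and 0.27 for the cell cycle, from -0.095; the cause was not tested for the last 2. The X-minus-autosome difference was 0.19 with no minimum on expression, and 0.19 to 0.35 with 1 library left out. Leaving out 1 library gave medians from 0.38 to 0.97 for neurons, 0.095 to 0.13 for oxidative phosphorylation, 0.15 to 0.36 for immediate early genes, 0.073 to 0.17 for heat shock, -1.04 to -0.049 for collagens, -0.35 to 0.098 for oligodendrocyte precursors, -0.16 to 0.24 for microglia and -0.20 to 0.092 for the cell cycle. With the replicate block, limma called 0 genes and the X difference stayed at 0.30; it changed no other call. With 3 libraries per group, an exact permutation test of a single value cannot go below 0.10.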

Other observations

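Gene groups not described above also held members whose libraries did not overlap. Of the Wnt ligands, receptors and inhibitors, 27 were tested; 5 did not overlap in the lower direction and 1 in the higher, beside 6.78% and 7.01% of all genes tested, and the median was -0.045. Fzd1, a Wnt receptor, was at 66.4, 38.03 and 34.2 CPM in untreated old and 25.7, 28.2 and 25.7 CPM in parabiosis libraries, and Wnt5b, a ligand, at 5.44, 5.79 and 7.87 CPM in untreated old and 4.202, 4.87 and 3.71 CPM in parabiosis libraries. Parabiosis libraries were the lower ones in both. Rnf43, a ligase that removes Frizzled receptors from the cell surface, was at 2.16, 2.32 and 1.69 CPM in untreated old and 4.82, 2.87 and 2.66 CPM in parabiosis libraries, with parabiosis the higher. In the Notch list, 13 of 17 had lower means, with a median of -0.12, and Hes6, a transcription factor of differentiating neural precursors, was at 20.4, 21.6 and 24.7 CPM in untreated old and 16.1, 14.7 and 11.1 CPM in parabiosis libraries. Of the 17, 1 was separate and lower, 5.88%, below the 6.78% of all genes tested, and 0 were separate and higher.

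Antioxidant genes of the NRF2 response had higher means in 10 of 12, with a median of 0.25. Gclm, the modifier subunit of the enzyme that starts glutathione synthesis, was at 24.02, 24.02 and 23.1 CPM in untreated old and 28.5, 39.1 and 29.5 CPM in parabiosis libraries, and Keap1, which holds NRF2 back, at 46.1, 49.01 and 44.4 CPM in untreated old and 58.9, 50.3 and 62.1 CPM in parabiosis libraries. All parabiosis libraries were higher for both. In this list 2 of 12 genes did not overlap in the higher direction and 0 in the lower, beside 7.01% and 6.78% of all genes tested. Eda2r, an X-linked receptor of the ectodysplasin form EDA-A2, was at 1.08, 1.01 and 0.866 CPM in untreated old and 2.699, 2.17 and 1.43 CPM in parabiosis libraries, also higher in each parabiosis library at a level near the minimum. Gpnmb, a glycoprotein of phagocytic microglia and macrophages, was at 69.7, 125 and 58.6 CPM in untreated old and 203, 144 and 185 CPM in parabiosis libraries. Of blood cell genes, Hba-a1, an alpha globin with a near-identical copy in Hba-a2, was at 12.4, 10.2 and 12.5 CPM in untreated old and 25.7, 25.1 and 30.5 CPM in parabiosis libraries, whereas Hba-a2 was at 5.72, 3.32 and 1.66 CPM in untreated old and 2.35, 6.27 and 0 CPM in parabiosis libraries; the split of reads between these copies is uncertain. Cxcr2, a chemokine receptor of neutrophils, was at 57.8, 58.6 and 67.2 CPM in untreated old and 48.5, 49.9 and 49.8 CPM in parabiosis libraries, lower in each parabiosis library, while only 3 of the 12 listed neutrophil genes reached the expression minimum. Separate and lower was 1 of these 3. In the list with Eda2r, 3 of 13 were separate and higher, and in that of red cells and platelets 2 of 6. Each of these lists had 0 in the opposite direction.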
